A study of Mus musculus with 12 samples.

Results

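Gene desert peaks were the H3K36me2 peaks farthest from protein-coding genes in mouse somatosensory cortex. A peak belonged to this set when its midpoint lay in no annotated gene body of any kind and more than 300 kb from the nearest start or end of a protein-coding gene. The set held 327 of the 3722 peaks deposited: 14 of 231 from control (Ctrl) cortex and 313 of 3491 from conditional knockout (cKO) cortex. The choice used position alone, so fold, q and sharing between genotypes were not part of it.

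Chromatin immunoprecipitation and sequencing with an H3K36me2 antibody, and sequencing of input chromatin, gave 12 libraries in 4 groups of 3, from mice aged 2.5 months. The cKO animals carried the genotype Nsd1Nex-cKO. In each Ctrl group, 2 libraries were labelled Nsd1fl/+ and 1 was labelled Nsd1fl/fl, so every labelled control carried at least 1 floxed Nsd1 allele, and whether controls carried Cre is not given in the sources used here. Cre driven by Nex recombines in excitatory forebrain neurons after their last division, so the interneurons, glia and vascular cells of dissected cortex keep intact Nsd1, and loss in part of the cells cannot be told apart from a change in all of them. Each genotype was represented by 1 peak list, which the labels of its 6 libraries all named. Differences between the lists therefore have no replicate check, and read depth is unknown. Peak lists hold no expression values, so neither the deletion of Nsd1 nor the tissue label could be checked against marker genes.

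H3K36me2 is placed on nucleosomes by NSD1 and related methyltransferases, and it forms broad domains over transcribed chromatin and much intergenic sequence. In intergenic chromatin the mark is known for recruiting the DNA methyltransferase DNMT3A, whose product is abundant in neurons. Gene deserts are long intervals without protein-coding genes. They often lie beside genes for neuronal adhesion molecules and developmental transcription factors, and some hold distant enhancers of these flanking genes.

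A dense group of gene desert peaks lay at the first sequenced bases of chromosome 9. Its annotated neighbour was Mir101c, a microRNA gene of the miR-101 family, which was the nearest gene of any kind to 23 cKO and 4 Ctrl gene desert peaks. Mir101c is a landmark for the group and not one of its peaks. Its mature product is shown because it is the annotated RNA closest to the most crowded gene desert in both lists. The sequence is from RefSeq (GRCm38.p6, minus strand, chr9:3038680-3038698), with the seed, bases 2 to 8, in capitals.
mmu-miR-101c: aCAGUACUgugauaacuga
The run of peaks continued past the 300 kb line, and its last peak, which was not a gene desert peak, ended 472 bp before the Mir101c gene and 483 bp before this mature sequence.

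Counted over all deposited peaks, gene deserts held fewer peaks per Mb than the rest of the genome in both lists. Sequence that met the position rule made up 342 of 2661 Mb, or 12.8% of the annotated span. Gene desert peaks were 6.06% of the Ctrl list (Wilson 95% interval 3.64 to 9.91%) and 8.97% of the cKO list (8.06 to 9.96%). The cKO list had 0.916 peaks per Mb of gene desert (exact Poisson 95% interval 0.818 to 1.02) against 1.37 per Mb elsewhere (1.32 to 1.42). The Ctrl list had 0.0410 per Mb (0.0224 to 0.0688) against 0.0936 (0.0815 to 0.107). Within each list these intervals did not overlap. Without peaks that crowd together (3 or more neighbours of either list within 100 kb), the cKO values were 0.840 (0.746 to 0.943) and 1.26 (1.21 to 1.30), still apart. The Ctrl values were then 0.0205 (0.00824 to 0.0422) and 0.0470 (0.0386 to 0.0567), and their intervals overlapped. Where −log10 q was 2 or more, the gene desert share was 10.7% in cKO (7.95 to 14.2%), an interval that includes 12.8%. In Ctrl it was 30% (6 of 20, 14.5 to 51.9%), above the share of the span, and all 6 came from the crowded places described in the next paragraphs. All intervals in the text cover counting error alone and treat peaks as independent.

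Density in the cKO list was lower far from protein-coding genes than near them, and the step lay nearer to genes than the 300 kb line. Outside gene bodies there were 1.76 cKO peaks per Mb within 5 kb of a protein-coding gene (1.54 to 2.00) and 1.70 between 5 and 50 kb (1.57 to 1.82). Between 50 and 300 kb the density was 1.05 (0.968 to 1.15). The gene desert classes continued at 1.01 from 300 to 500 kb (0.852 to 1.19, 144 peaks), 0.894 from 500 to 1000 kb (0.743 to 1.07, 123 peaks) and 0.750 beyond 1000 kb (0.549 to 1.00, 46 peaks). Intervals of neighbouring classes overlapped from 50 kb outward. The first gene desert class held the chromosome 9 group, and the last held the crowded peaks of chromosome 2. Without those crowded places the gene desert classes stood at 0.849 (0.705 to 1.01), 0.894 and 0.701 (0.507 to 0.944). They then showed no steady fall. The 14 Ctrl peaks fell 7, 4 and 3 into the gene desert classes, too few to order them.

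**Figure D1:**
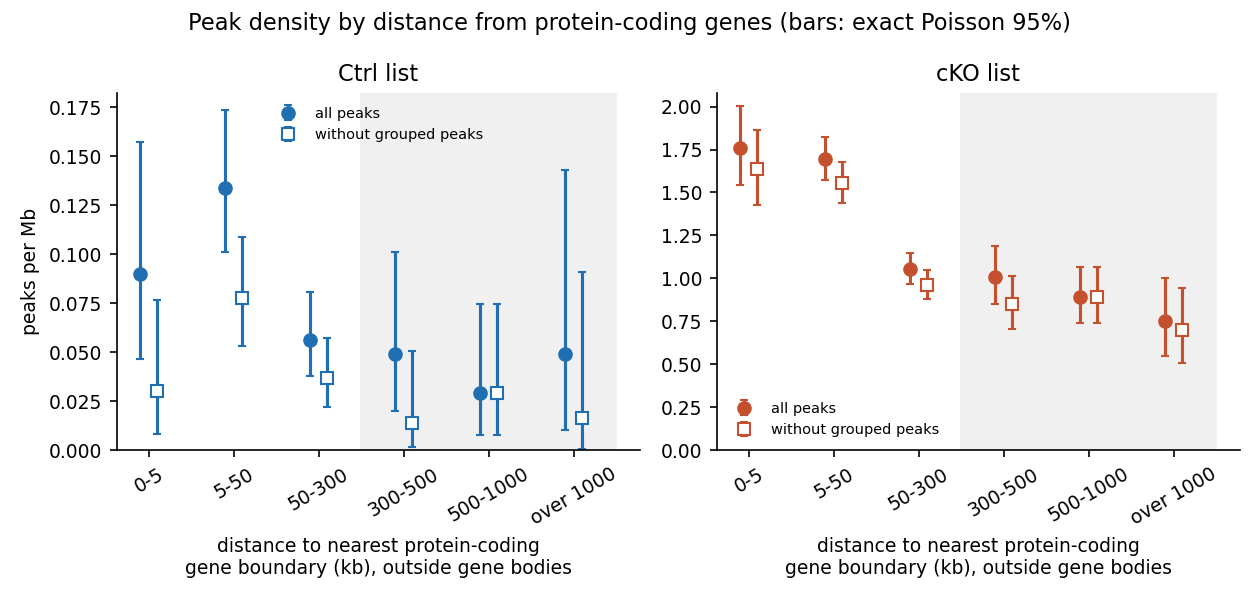
Peaks per Mb (vertical axes, scaled apart for each list) by distance to the nearest protein-coding gene boundary outside gene bodies, for Ctrl (left) and cKO (right), with exact Poisson 95% intervals as bars; open squares leave out peaks with 3 or more neighbours within 100 kb, and the shaded classes are gene desert. The cKO points for all peaks drop from 1.70 to 1.05 per Mb between the 5 to 50 kb and 50 to 300 kb classes. In gene desert they lie between 0.750 and 1.01.

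Gene desert peaks were of 2 kinds in both lists: crowded peaks of low fold and very high −log10 q at 2 places, and scattered peaks of higher fold that mostly missed a q of 0.05. Fold is the peak caller's enrichment over the local background of that list, and a −log10 q of 0 stands for a q of 1. The crowded kind comprised 26 cKO and 6 Ctrl peaks, at the start of chromosome 9 and between Lrrc4c and Iftap on chromosome 2. All 32 had a fold of 2.00 or less and a q under 0.05. The other 287 cKO peaks had folds from 1.70 to 4.28, with a median of 2.86 (2.84 to 2.91) and a −log10 q of at most 6.57. The other 8 Ctrl peaks had folds from 1.69 to 3.20 and a −log10 q of at most 0.242. Of these, the peak at chr16:3265435-3265783 had 3 neighbours within 100 kb. It lay outside the 2 places and is counted here with the scattered kind. Among the cKO peaks, no value of −log10 q from the scattered kind reached 20, whereas 25 of the 26 crowded peaks did.

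**Figure D2:**
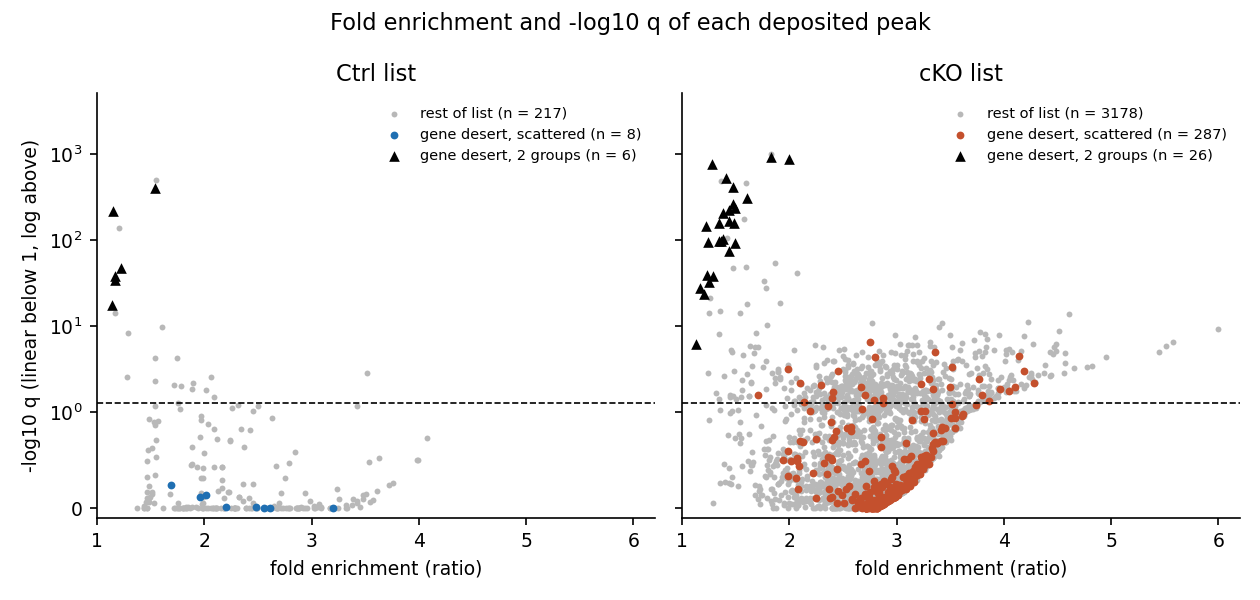
Fold enrichment (horizontal) against −log10 q (vertical, linear below 1 and logarithmic above) for each deposited peak of the Ctrl (left) and cKO (right) lists; the dashed line marks a q of 0.05. Black triangles, the 6 Ctrl and 26 cKO peaks of the 2 crowded places, sit at a fold of 2.00 or less and at high −log10 q, and the scattered gene desert peaks lie among the rest of each list.

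The crowded peaks supplied most of the very high −log10 q values of either list. A −log10 q of at least 20, a class set after the values were seen, was reached by 37 cKO peaks (1.06% of the list), of which 25 were gene desert peaks. In the Ctrl list it was reached by 7 peaks (3.03%), of which 5 were gene desert peaks. These 30 peaks all came from the 2 places. The single highest value of each list, 1004 in cKO and 503 in Ctrl, lay outside gene desert.

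At the start of chromosome 9 a run of 26 cKO peaks spanned 37.9 kb, beginning at base 3000331 (chr9:3000331-3038196). The peaks covered 34.8% of that stretch. The gene to its right was Alkbh8, which encodes a tRNA-modifying enzyme and starts at 3335231. The 300 kb line measured from Alkbh8 ran through the group, so 23 of the 26 cKO peaks and 4 of the 5 Ctrl peaks counted as gene desert. Just inside the line the cKO peak at chr9:3034395-3035189 had a fold of 1.17 and a −log10 q of 27.7. Just outside it the peak at chr9:3036047-3036268 had a fold of 1.26 and a −log10 q of 21.2. Assembly gaps, repeats and mappability were not analysed here, and their part in this group and in the crowded peaks of chromosome 2 was not tested.

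Within the chromosome 9 group, cKO folds ranged from 1.13 to 1.61 with a median of 1.38, and −log10 q ranged from 6.25 to 521. The gap between neighbouring midpoints over both crowded places had a median of 1.37 kb in the cKO list. The 4 Ctrl peaks had folds of 1.14, 1.17, 1.22 and 1.17, with −log10 q values of 17.8, 38.2, 47.8 and 34.8. Each of the 4 lay under a cKO peak. The 5 widest gene desert peaks of the cKO list, at 1035 to 1327 bp, were all in this group.

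**Figure D3:**
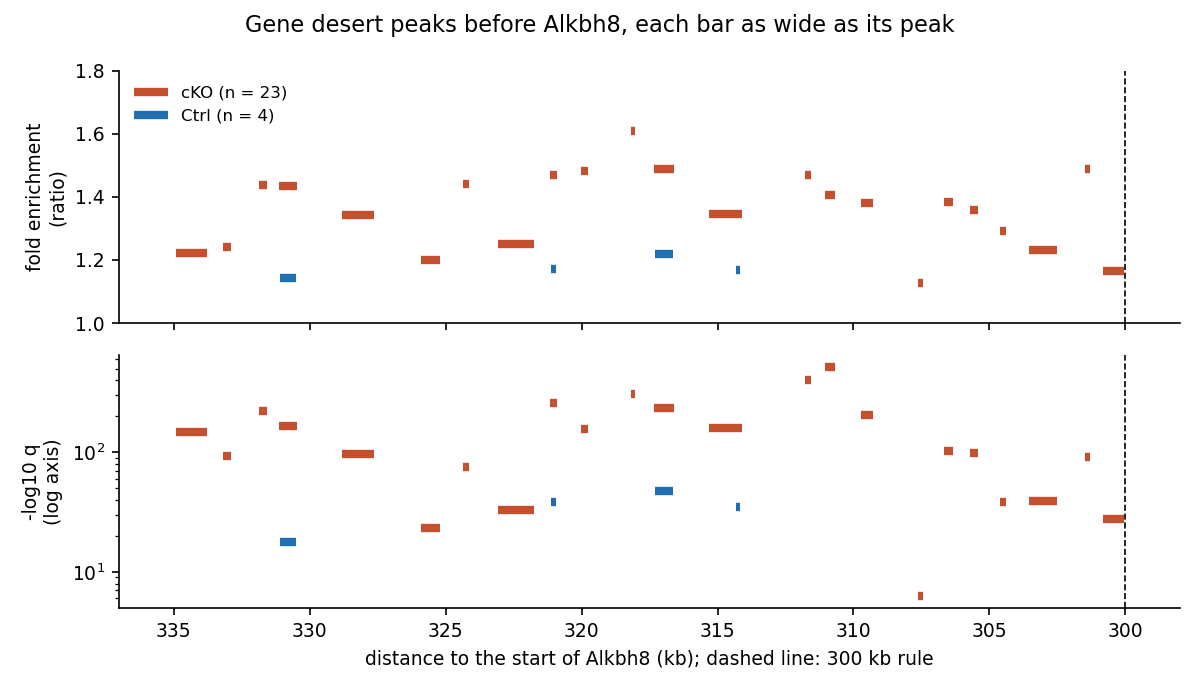
Gene desert peaks at the start of chromosome 9 by distance to the start of Alkbh8 in kb (horizontal, falling to the right), with fold enrichment (top) and −log10 q (bottom, logarithmic); each bar is as wide as its peak, orange for 23 cKO peaks and blue for 4 Ctrl peaks. The cKO bars run from 1.13 to 1.61 in fold, and each Ctrl bar lies at the position of a cKO bar and below it.

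The other crowded place was the 3929 kb interval between Lrrc4c, which encodes a netrin-G ligand of excitatory synapses, and Iftap on chromosome 2. The cKO list had 3 peaks there within 5 kb. The peak at chr2:98662271-98662742 had a fold of 1.83 and a −log10 q of 929, the highest −log10 q of any gene desert peak. Its neighbours at chr2:98665004-98665164 and chr2:98666677-98667216 had folds of 2.00 and 1.28 and −log10 q values of 862 and 752. Ctrl peaks lay under the first and last of these. The Ctrl peak at chr2:98662307-98662724 had a fold of 1.54 and a −log10 q of 402, and the one at chr2:98666758-98667193 had a fold of 1.15 and a −log10 q of 216. All lay about 1 Mb from Lrrc4c, between 1031 and 1035 kb for the Ctrl peaks. Another cKO peak of the same desert, at chr2:100116252-100116482, was of the scattered kind, with a fold of 3.50 and a −log10 q of 1.98.

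Most scattered gene desert peaks had weak support. In the cKO list 55 of 313 gene desert peaks had a q under 0.05, or 17.6% (13.8 to 22.2%), beside 18.4% of all cKO peaks. In the Ctrl list the count was 6 of 14, beside 9.96% of all Ctrl peaks, and all 6 were crowded peaks. Without the 2 crowded places the counts were 29 of 287 in cKO, or 10.1% (7.13 to 14.1%), and 0 of 8 in Ctrl (Wilson interval 0 to 32.4%). The rest of the cKO list, filtered of peaks with 3 or more neighbours of either list within 100 kb, stood at 17.6% (16.2 to 18.98%). Peaks at 5 to 50 kb, filtered alike, also stood at 17.6% (14.9 to 20.7%), and those at 50 to 300 kb at 10.9% (8.44 to 13.9%). The lower share was therefore common to gene desert and to the class next to it. A −log10 q of at least 2 was reached by 40 of 313 cKO gene desert peaks, beside 10.7% of all cKO peaks, and by 14 of the 287 scattered ones. In the Ctrl list it was reached by the same 6 crowded peaks, beside 8.66% of all Ctrl peaks.

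Fold did not follow that share. Median fold was 2.85 for all cKO gene desert peaks (2.81 to 2.88) and 2.82 for the rest of the list (2.81 to 2.84). The difference was within the counting intervals. In the Ctrl list the gene desert median was 1.82 (1.17 to 2.56) against 2.19 (2.09 to 2.33) for the rest. That Ctrl median rested on the crowded peaks, and without the 2 places it was 2.34 (1.69 to 3.20). The rest of the Ctrl list also held peaks with 3 or more neighbours within 100 kb. With all such peaks left out, the Ctrl medians were 2.20 (1.69 to 3.20) in gene desert and 2.68 (2.49 to 2.88) in the rest. The gene desert value stayed the lower, with overlapping intervals. Scattered cKO peaks had a median width of 225 bp against 244.5 bp in the rest of the list filtered alike. A width of 147 bp, the lowest in either list, was found for 19.2% of them (15.0 to 24.1%) for 13.3% of the filtered rest (12.2 to 14.6%) and for 15.1% of the filtered peaks at 50 to 300 kb (12.2 to 18.5%), whose interval overlapped that of the gene desert peaks. Widths of 500 bp or more were found for 9.06% of the scattered gene desert peaks (6.26 to 12.9%), for 6.69% of the filtered rest (5.84 to 7.65%) and for 5.85% at 50 to 300 kb (4.10 to 8.27%).

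The 14 Ctrl gene desert peaks lay in 10 deserts, and cKO gene desert peaks lay in all 10, beside 180 of all 564 deserts. Longer deserts held cKO peaks more often, up to 26 of 27 beyond 3 Mb. A Ctrl peak overlapped by a cKO gene desert peak also puts both lists in the same desert. The count of 10 is therefore not separate from the overlaps that follow. Of the Ctrl peaks, 11 of 14 were overlapped by a cKO peak by at least 1 bp (78.6%, 52.4 to 92.4%), beside 42.4% of all Ctrl peaks. Of the cKO gene desert peaks, 11 of 313 were overlapped by a Ctrl peak (3.51%, 1.97 to 6.18%), beside 2.81% of all cKO peaks. Without the 2 crowded places the counts were 5 of 8 (62.5%, 30.6 to 86.3%) and 5 of 287 (1.74%, 0.746 to 4.01%). In the rest of the Ctrl list without crowded peaks the share was 30.3% (22.4 to 39.5%), and in Ctrl gene desert filtered by the same rule, which drops 1 further peak, it was 5 of 7 (71.4%, 35.9 to 91.8%). These intervals overlapped.

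The 5 shared peaks outside the crowded places were as follows. On chromosome 15 a Ctrl peak between Myc, a transcription factor gene, and Gsdmc, a gasdermin gene, lay at chr15:62930279-62930501, 940 kb past Myc. It had a fold of 2.61 and a −log10 q of 0, against 3.23 and 2.14 for the cKO peak over it. Between Kcnt2, a sodium-activated potassium channel gene, and Cdc73, the Ctrl peak at chr1:141190074-141190242 had 2.20 and 0.0158, against 2.67 and 1.99 in cKO. Between the type II cadherin genes Cdh8 and Cdh11, the Ctrl peak at chr8:102012896-102013209 had 1.96 and 0.117, against 2.30 and 2.09 in cKO.

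Before Samd9l, the first protein-coding gene of chromosome 6, the Ctrl peak at chr6:3050462-3050767 had a fold of 1.69 and a −log10 q of 0.242, against 1.98 and 3.16 in cKO. Between 4931408C20Rik and Gm597, the Ctrl peak at chr1:27139928-27140090 had 2.01 and 0.140, against 2.14 and 1.31 in cKO. All 5 had a q under 0.05 in the cKO list and missed it in the Ctrl list. In all 11 shared pairs the cKO fold and the cKO −log10 q were the higher numbers. Each list was scored against its own background and at its own depth, so these pairs do not show that H3K36me2 itself was higher in cKO cortex. The overlap covered 91.3 to 100% of the shorter peak in every pair.

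**Figure D4:**
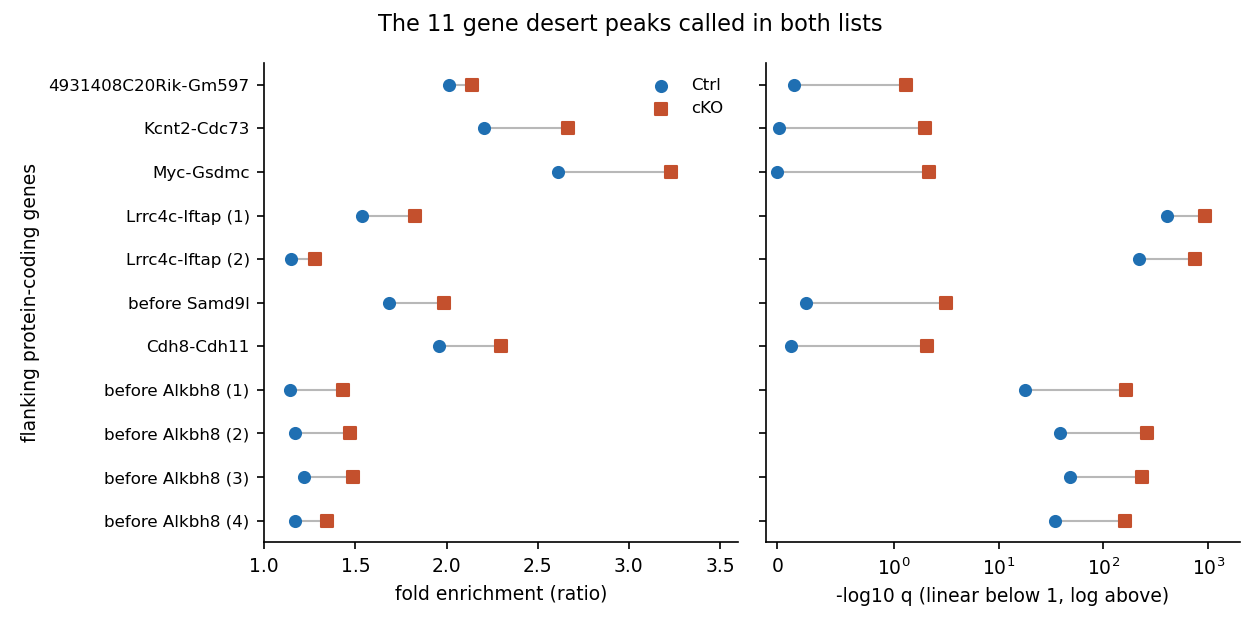
Fold enrichment (left) and −log10 q (right, linear below 1 and logarithmic above) of the 11 gene desert peaks found in both lists, blue circles for Ctrl and orange squares for cKO, 1 row per pair named by the flanking protein-coding genes. The cKO value is the higher in each row of both panels, and the 6 rows of the crowded places hold the lowest folds and the highest −log10 q values.

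The other 3 Ctrl gene desert peaks had no cKO peak over them. The farthest from genes lay between the protocadherin genes Pcdh20 and Pcdh9 at chr14:90463393-90463892, 1992 kb from Pcdh20. It had the highest fold of the 14, 3.20, with a −log10 q of 0, and the nearest cKO peak was 566 kb away. The peak at chr16:3265435-3265783, before the olfactory receptor gene Olfr161, had a fold of 2.56 and a −log10 q of 0, with a cKO peak 84.2 kb away. The peak at chr9:12740156-12740302, between the contactin gene Cntn5 and Jrkl, had a fold of 2.48 and a −log10 q of 0.0131, with a cKO peak 430 kb away. All 3 missed a q of 0.05.

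The 5 highest folds among cKO gene desert peaks lay between Gm11677 and Sox9, Tenm3 and Aga, Epha6 and Nsun3, and Pcdh7 and G6pd2. The desert between Gm11677 and Sox9, a transcription factor gene of glial and cartilage development, held 2 of the 10 highest. The peak at chr11:112100542-112100691, 374 kb past Gm11677 and 682 kb before Sox9, had the highest fold of all, 4.28. Its −log10 q was 2.19. The peak at chr11:112432973-112433119, 349 kb before Sox9, had a fold of 4.11 and a −log10 q of 1.95.

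Between Tenm3, a teneurin gene of synaptic partner matching, and Aga, the peak at chr8:51395497-51395652 had a fold of 4.19 and a −log10 q of 3.05. It was also the fifth farthest cKO gene desert peak from a protein-coding gene, at 1873 kb. Between the ephrin receptor gene Epha6 and Nsun3, the peak at chr16:61398633-61398795 had a fold of 4.14 and a −log10 q of 4.50. Between the protocadherin gene Pcdh7 and G6pd2, the peak at chr5:60471131-60471286 had 4.05 and 1.78. It lay 2338 kb from Pcdh7 and 1338 kb from G6pd2. The remaining 5 had folds of 3.96 (Slc6a14 and Klhl13, X chromosome), 3.87 (Eno1b and Dtwd2), 3.80 (Tnc and Pappa), 3.77 (Nxph1 and Ndufa4) and 3.74 (Ppp6c and Lrp1b). Of these 10 peaks 9 had a q under 0.05, beside 18.4% of all cKO peaks. Fold and q come from the same peak calls, so that count is not separate support. A Ctrl peak overlapped 0 of the 10, beside 2.81% of all cKO peaks, and widths ran from 147 to 224 bp.

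The 10 highest −log10 q values among cKO gene desert peaks all came from the 2 crowded places. Outside them, a choice made after the values were seen, the highest was 6.57 at chr14:94317170-94317318, 424 kb past the protocadherin gene Pcdh9, where the fold was 2.76. The peak at chr2:9026337-9026594 followed with 5.06 and a fold of 3.35, between Celf2, an RNA-binding protein gene, and Gata3. The peak at chr8:30705351-30705573, between the netrin receptor gene Unc5d and Dusp26, had 4.37 and a fold of 2.80. Before Olfr161, the peak at chr16:3112078-3112227 had 3.39 and a fold of 3.52. The peak at chr11:18331831-18332109, 378 kb from Etaa1 and 548 kb from the homeobox gene Meis1, had 2.99 and a fold of 2.46. Values between these were those of the Epha6 (4.50), Samd9l (3.16) and Tenm3 (3.05) peaks named in other paragraphs.

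Distance to genes varied widely among gene desert peaks, and some gene of another kind was usually closer than a protein-coding one. The median distance of cKO peaks to the nearest protein-coding boundary was 524 kb, with a highest value of 2013 kb. That farthest peak lay between Cntnap5b, a contactin-associated protein gene, and the cadherin gene Cdh20 at chr1:102755049-102755598, with a fold of 2.94 and a −log10 q of 0.140. The next 3 lay between Celf4 and Pik3c3 (1934 kb), between Tenm3 and Aga (1928 kb) and between Dsel and Cntnap5a (1898 kb). The nearest annotated gene of any biotype was far closer, at a median of 59.5 kb. Of 313 peaks 37 lay within 10 kb of one, and 104 lay more than 100 kb from any. The nearest gene was a pseudogene for 147 peaks, a long noncoding RNA for 92 and a microRNA for 26, of which 23 were Mir101c. These biotype counts were not set beside the shares of each biotype in the annotation. For the 14 Ctrl peaks the medians were 478 kb to a protein-coding gene and 35.7 kb to any gene.

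Some peaks more than 300 kb from any protein-coding gene boundary lay inside a gene body and were left out by the rule. There were 63 such cKO peaks, 30 in protein-coding genes and 33 in genes of other kinds, whose length was not examined. The Ctrl list had 1, in the synaptic adhesion gene Cadm2. Their median fold in cKO was 2.84 (2.78 to 2.91), within the interval of the gene desert peaks.

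Gene desert peaks were spread over many deserts. The genome held 564 intervals long enough to contain 1 or more, of which 180 held a cKO peak, 10 held a Ctrl peak as well, 0 held Ctrl peaks alone and 384 held neither. There was 1 cKO peak in 113 deserts, 2 in 39, 3 in 14, 4 in 9 and 5 or more in 5. Outside the crowded places, neighbouring midpoints within a desert were a median of 315 kb apart over 109 pairs, and 24 of these pairs were under 100 kb apart.

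Among deserts of more than 600 kb, longer ones held cKO peaks more often. The share with a cKO peak was 33 of 278 for deserts of 600 to 1000 kb (11.9%), 79 of 205 for 1 to 2 Mb (38.5%), 38 of 48 for 2 to 3 Mb (79.2%) and 26 of 27 beyond 3 Mb (96.3%). A few shorter intervals, at chromosome ends with a protein-coding gene on 1 side only, are not in these classes. Of those, 4 held cKO peaks, including the start of chromosome 9. Per Mb of sequence that met the rule the 4 classes held 0.830, 0.795, 0.906 and 0.814 cKO peaks, the crowded places left out. Density was thus much the same in short and long deserts. Across the 564 deserts, which share 1 list, Spearman's rho between the length meeting the rule and the cKO count was 0.543. The desert beyond 3 Mb without a cKO peak lay between the cadherin genes Cdh6 and Cdh9 on chromosome 15 and measured 3552 kb.

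**Figure D5:**
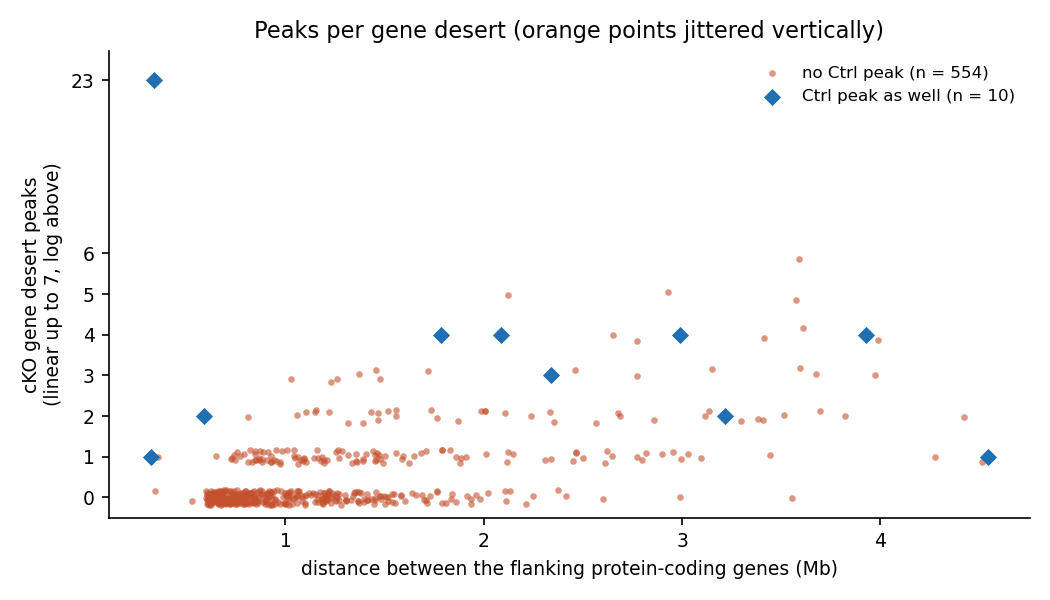
Number of cKO gene desert peaks (vertical, linear up to 7 and logarithmic above) against the distance between the flanking protein-coding genes in Mb (horizontal), 1 point for each of 564 deserts; blue diamonds are the 10 deserts that also hold a Ctrl peak. Deserts without a cKO peak crowd below 1 Mb, and the diamond at 23 peaks is the start of chromosome 9.

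After the chromosome 9 group, the 4 deserts with the most cKO peaks held 5 or 6 each. The desert between Nudt12 and Efna5, an ephrin ligand gene, on chromosome 17 held 6 peaks with folds of 2.01 to 3.13, all with a −log10 q of 0.496 or less. Those between D3Ertd751e and the protocadherin gene Pcdh10, between Brinp3 and Pla2g4a, and between Epha6 and Nsun3 held 5 each. In the first of these folds ran from 2.80 to 3.19, in the second from 2.49 to 3.21, and 0 peaks of either had a q under 0.05. In the Epha6 desert folds ran from 2.39 to 4.14 and 1 of the 5 peaks had a q under 0.05. Each of these deserts was longer than 2 Mb.

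By chromosome, cKO density in gene desert without the crowded places was highest on chromosome 6, at 1.60 per Mb (1.00 to 2.42, 22 peaks), followed by chromosome 16 at 1.31 (0.789 to 2.05, 19 peaks). It was lowest on Y, at 0.208 (0.0430 to 0.609, 3 peaks), then on chromosome 13 at 0.396 (0.129 to 0.924) and chromosome 12 at 0.433 (0.187 to 0.852). The X chromosome stood at 0.627 (0.351 to 1.03, 15 peaks). Neighbouring chromosomes in this order had overlapping intervals. The sex of the animals and the mappability of Y are not given in the sources used here.

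Flanking genes were grouped by 5 lists. Of 21775 protein-coding genes, 998 flanked a desert that could hold a gene desert peak, and 333 of these flanked one with a cKO peak (33.4%). Among 26 cadherin and protocadherin genes, 20 flanked a desert and 14 of them one with a cKO peak (70.0%). Their deserts were long, with a median of 2053 kb against 997 kb for all deserts, and held 0.747 cKO peaks per Mb against 0.840 for all. Of 58 genes for synaptic adhesion molecules and glutamate receptors, 36 flanked a desert and 20 one with a cKO peak (55.6%), at a median length of 1368 kb and 0.860 peaks per Mb. For both lists the share was above that of all flanking genes, and the density was near or below it.

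Within the cadherin list, Cdh2, the neural cadherin gene, had a flanking peak with a fold of 3.55 and a −log10 q of 0.940. Pcdh19 and Pcdh18 followed with folds of 3.43 and 3.37 and −log10 q values of 0.848 and 0.684, below Pcdh7 at a fold of 4.05. The peaks of Cdh2 and Pcdh19 lay 2049 and 2777 kb from these genes. Within the synaptic list, Tenm3 led at 4.19 and Lrp1b, a lipoprotein receptor gene, at 3.74, with −log10 q values of 3.05 and 1.21. The kainate receptor gene Grik2 followed with a flanking peak of fold 3.61 and Lrrc4c with one of 3.50. The −log10 q values of these 2 peaks were 0.967 and 1.98. They lay 1630 kb from Grik2 and 2485 kb from Lrrc4c. Of all 998 flanking genes 17 flanked a desert with a Ctrl peak. Of the 20 flanking cadherin and protocadherin genes 4 did so (Cdh8, Cdh11, Pcdh9 and Pcdh20), but these genes bound only 2 deserts, Cdh8 to Cdh11 and Pcdh20 to Pcdh9. Of the 36 flanking genes on the synaptic list 2 did so (Lrrc4c and Cntn5).

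In the share of flanking genes with a cKO peak, the other 3 lists were nearer to all flanking genes. Their densities were above the 0.840 per Mb of all deserts but carry no intervals. They rest on 20 (axon guidance), 25 (developmental transcription factor) and 9 (ion channel) peaks outside the crowded places. Of 38 axon guidance genes 18 flanked a desert and 7 one with a cKO peak (38.9%). Epha6 led at a fold of 4.14 and a −log10 q of 4.50. Efna5 followed at 3.13, the ephrin-B gene Efnb2 at 3.10 and Epha7 at 2.82, with −log10 q values of 0.291, 0.328 and 0.0232. The peaks of Efna5 and Efnb2 lay 2627 and 2832 kb from these genes. The deserts of the 18 flanking axon guidance genes held 1.08 cKO peaks per Mb. Of 86 developmental transcription factor genes 38 flanked a desert and 15 one with a cKO peak (39.5%). The highest folds were 4.28 for Sox9, 3.37 for Sox2 and 3.33 for Zfhx4, with −log10 q values of 2.19, 0.676 and 0.626. The Zfhx4 peak lay 1028 kb from that gene. The deserts of the 38 flanking transcription factor genes were shorter, at a median of 940 kb, and held 1.20 cKO peaks per Mb. Of 49 ion channel genes 12 flanked a desert and 4 one with a cKO peak (33.3%), at 0.923 peaks per Mb. Among them Kcnd2, Kcnt2 and Kcnv1 had highest folds of 3.51, 3.34 and 2.88, with −log10 q values of 1.27, 0.599 and 1.45. Genes that flank the same desert share its peaks, and the lists were compared by count alone.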

How the data were processed

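The authors deposited 1 broad peak list per genotype for 12 libraries of mouse somatosensory cortex. Cutadapt, Bowtie2 2.4.4, MACS2 and mm10 are named without roles or settings, per the submitters' processing notes. Whether replicates were pooled and the read depth are not given in the sources used here. Deposited columns were a score (not used), a fold enrichment ratio, and −log10 p and −log10 q, all the authors' values. In the authors' deposited table −log10 p began at 3.08 (Ctrl) and 3.02 (cKO). Peak names inside the Ctrl list call it WT.

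Peaks were placed on the RefSeq gene table of GRCm38.p6, with coordinates counted from 1. On chromosomes 1 to 19 and X, 340 genes ending below 3 Mb, where no peak lay, were left out, which changed 0 memberships and left 49599 genes. Shares carry Wilson intervals, densities exact Poisson intervals and medians order-statistic intervals (95%). With 1 list per genotype no test was run. The members and lists were chosen with earlier results of these data known. All Ctrl members were named, with the cKO members that were shared, highest in fold or −log10 q (10 each), widest or farthest (5 each) or in the 5 fullest deserts, the 2 peaks nearest the line on each side and up to 4 genes per list. Some genes of the lists are not reported here. The text prints the widest as a range and gives the fullest deserts as ranges. Peaks of the chromosome 9 group, among them members of highest −log10 q and shared members, appear as ranges or values, mostly without positions. The procedure was tested on simulated peaks. Calculations used Python 3.11.15, pandas 2.3.3 and scipy 1.17.1. Alternatives were other distances, whole-peak positions, predicted genes ignored, a −log10 q of at least 2, autosomes, joined peaks and other overlap rules. Genome sequence was not used here.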

Additional observations from a re-analysis of the deposited data

How the results depend on the processing

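Of 94 values recomputed under alternatives, 25 moved. The other 69 did not: shares and medians stayed within their intervals, and counts within 1.5 times, which still let cKO peaks go from 313 to 419 beyond 200 kb and to 371 with predicted genes ignored, and overlapped cKO peaks from 11 to 15 with peaks within 1000 bp counted. With a −log10 q of at least 2, 6 Ctrl and 40 cKO gene desert peaks remained, 30% and 10.7% of their lists; cKO median fold was 1.48, overlaps were 6 and 6, and q shares were 100% by construction. Beyond 500 kb there were 7 and 169 peaks (3.03% and 4.84%), overlaps of 5 and 5, and 8.88% of cKO peaks with a q under 0.05. Beyond 200 kb the cKO share was 12.0%, and with predicted genes ignored 10.6%. Joining peaks under 5000 bp apart gave 7 overlapped cKO peaks and a q share of 10.5%. Leaving out grouped peaks, chosen after seeing the data, left 7 Ctrl peaks, overlaps of 5 and 5, and q shares of 0% and 10.1%. Whole-peak positions, autosomes, other overlap rules and keeping genes under 3 Mb moved no value past these limits. No paired analysis was possible because replicates carry no values of their own, and leaving out a replicate could not be run. Unknown depth limits any comparison of list lengths.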
